A study of Mus musculus with 6 samples.

Results

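A group of 10 genes was followed in mouse embryonic fibroblasts (MEF) that had squeezed through narrow pores. The group held 9 genes of mechanosensitive ion channels and Pla2g4a, which encodes the cytosolic phospholipase A2 that senses stretch of the nuclear envelope. They were chosen by name (Piezo1, Piezo2, Trpv4, Trpv2, Trpm7, Trpc1, Pkd1, Pkd2, Kcnk2 and Pla2g4a), and all 10 were found among the 55335 gene identifiers of the count table. Wild-type MEF, an adherent connective tissue cell grown in serum, were seeded above a membrane with 3 μm pores. Cells that had transmigrated were collected after 15 h (Confine) and compared with control MEF (Ctrl). The labels list 3 samples per group, but Confine replicates 1 and 2 held the same count for each gene and entered as 1 library, called the repeated library here, which left 3 Ctrl and 2 Confine libraries. Nothing in the labels says that the samples came from separate cultures, so p-values measure the spread between these libraries, which may be technical. Passage through the pores, culture on the membrane and the selection of the cells that crossed cannot be told apart in this design. The paper's transwell method, written for wider pores, placed cells in serum-free medium above medium with serum. Whether the 3 μm pores were used in the same way is not stated, and an effect of such a serum change could not be told apart either.

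Mechanosensitive channels open when the membrane around them is stretched or bent, and most of those studied here then let calcium into the cell. Piezo1 and Piezo2 form large propeller-shaped cation channels, the TRP channels answer stretch together with lipid, chemical and thermal signals, and the polycystins Pkd1 and Pkd2 form a receptor and channel pair of the primary cilium. Kcnk2 encodes TREK-1, a potassium channel of the K2P family (potassium channels with a pair of pore domains per subunit) that opens on stretch and on arachidonic acid. When a nucleus is squeezed and its envelope is drawn taut, cytosolic phospholipase A2 binds the inner nuclear membrane and releases arachidonic acid from its lipids, which is known to raise actomyosin contractility in confined cells.

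Of the 10 genes, 3 were upregulated and 1 was downregulated in Confine at an adjusted p under 0.05 (edgeR's quasi-likelihood test, Benjamini-Hochberg adjustment over all 15881 genes tested). Kcnk2 rose 4.41-fold, Trpc1 3.09-fold and Pla2g4a 2.37-fold, and Piezo2 fell to 0.335 of its Ctrl level. The other 6, Piezo1, Trpm7, Trpv4, Trpv2, Pkd1 and Pkd2, did not pass the test, and their log2 fold changes ran from -0.75 for Trpv4 to 0.43 for Trpv2. All 10 genes passed the filter on low counts. Of all tested genes 23.0% passed at this threshold (12.8% higher and 10.2% lower in Confine), so 4 of 10 is read against that background and no test was made over the group. With the study's fold cutoff added (absolute log2 fold change above 1.5), Kcnk2, Trpc1 and Piezo2 passed, against 8.00% of all tested genes (4.89% higher and 3.11% lower). Over 16 alternative fits the log2 fold change of Kcnk2 stayed past this cutoff (1.93 to 2.23). That of Trpc1 ran from 1.12 to 2.01 and that of Piezo2 from -1.91 to -1.32, so both fell short of the cutoff in some fits. In bulk RNA a lower level can mean fewer cells that express a gene or less RNA per cell, and these cannot be told apart. The number of tested genes past the threshold was 3654, and it was 2256 without the repeated library and 2054 without Confine replicate 3.

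**Figure D1:**
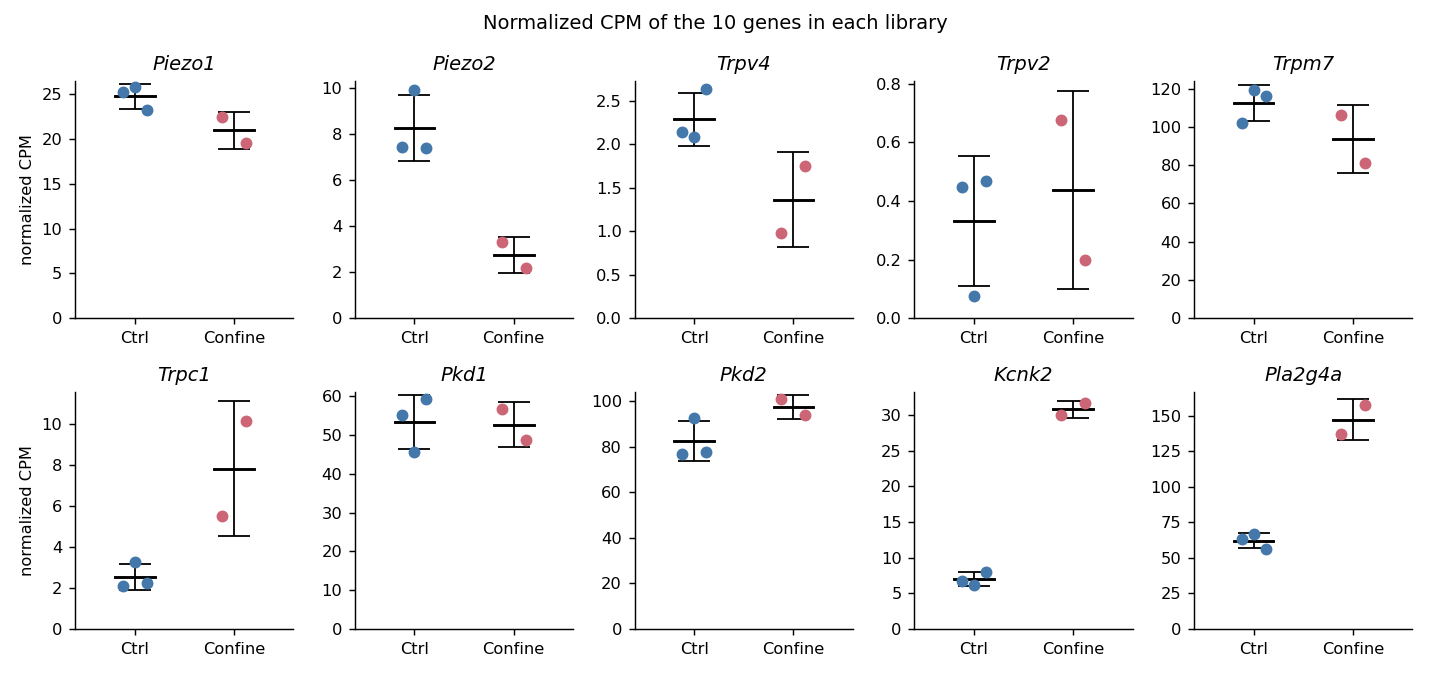
Normalized CPM (vertical axes, each from 0) of the 10 genes in each library, with 3 Ctrl libraries in blue and 2 Confine libraries in red; black bars give the mean and whiskers the SD. Kcnk2, Trpc1 and Pla2g4a lie higher and Piezo2 lower in both Confine libraries, while the groups overlap for Trpv2, Trpm7 and Pkd1.

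Of the Piezo genes, Piezo2 passed the test and Piezo1 did not, and the difference between their responses was not tested. Piezo1 (chr8:122481698-122551329 of GRCm38, minus strand) encodes the main Piezo channel of non-neuronal cells. Its normalized CPM (counts scaled to the size of each library) were 25.3, 25.8 and 23.2 in Ctrl, and 22.4 in the repeated library and 19.5 in Confine replicate 3. Both Confine libraries were below all 3 Ctrl libraries, but 49.5% of all tested genes had groups that did not overlap, and the log2 fold change of -0.24 (SE 0.19, 95% interval -0.63 to 0.15) did not pass the test (edgeR adjusted p = 0.401). The exons of Piezo1 share 2441 of their 9935 bases with exons of Ctu2 on the opposite strand, a gene with up to 1086 counts, and if counting ignored the strand, which is not given in the sources used here, reads of the pair cannot be told apart there.

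Piezo2 (chr18:63010213-63387183, minus strand) encodes the Piezo channel best known from touch and proprioceptive neurons. The Ctrl libraries held 215, 262 and 174 Piezo2 counts, the repeated library 98 and Confine replicate 3 had 55. These correspond to 7.43, 9.90 and 7.40 normalized CPM in Ctrl and 3.31 and 2.18 in Confine, with no overlap between the groups. The log2 fold change was -1.58 (SE 0.28, 95% interval -2.17 to -0.98, edgeR adjusted p = 4.06e-04), and it ran from -1.91 to -1.32 when each library was left out in turn, always past the threshold. The ratio of Piezo1 to Piezo2, each per kilobase of exons, was 5.89, 4.50 and 5.42 in Ctrl but 11.7 and 15.5 in Confine. Of 6 neuronal markers 2 were tested, and both had negative log2 fold changes like Piezo2. Map2 fell (log2 fold change -2.26, edgeR adjusted p = 1.94e-04) and Tubb3 had a log2 fold change of -0.57 without passing, and the summed level of the list was 18.5 to 23.9 normalized CPM in Ctrl and 12.7 in both Confine libraries. Rbfox3, a defining neuronal marker, had 0 counts in all 5 libraries and Snap25 at most 1. The part of these markers in the fall of Piezo2 was not tested.

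**Figure D2:**
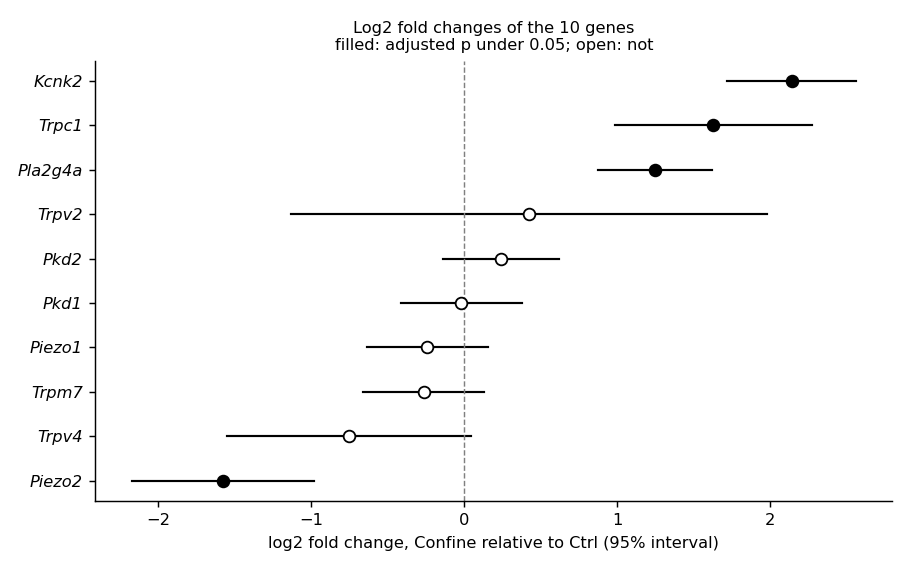
Log2 fold change of each gene in Confine relative to Ctrl (horizontal axis) with its 95% interval from edgeR's quasi-likelihood fit; filled points have an adjusted p under 0.05. Kcnk2 (2.14), Trpc1 (1.63) and Pla2g4a (1.25) lie right of 0 and Piezo2 (-1.58) lies left of it, and the widest interval is that of Trpv2, the gene with the fewest reads.

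Among the 4 TRP genes of the group, Trpc1 alone passed the test. Trpc1 (chr9:95705082-95750375, minus strand) encodes a subunit of cation channels opened by receptor signalling and by depletion of calcium stores, and a role in stretch has been proposed for it. It had 60, 86 and 53 counts in Ctrl, 163 in the repeated library and 256 in Confine replicate 3. In normalized CPM these are 2.07, 3.25 and 2.25 in Ctrl and 5.51 and 10.2 in Confine, so both Confine libraries lay above Ctrl but differed from each other. The log2 fold change was 1.63 (SE 0.31, 95% interval 0.98 to 2.27, edgeR adjusted p = 6.55e-04). Without Confine replicate 3, the higher of the Confine libraries, it was 1.12, so the size of the rise depended in part on that library. Trpc1 then missed the threshold, but that fit held a single Confine library and called fewer genes in all. The loss of the call can therefore not be set down to Confine replicate 3 alone.

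Trpm7 (chr2:126791565-126876230, minus strand) encodes a channel for magnesium, calcium and zinc fused to a kinase, and had the most reads of these 4 genes. Its levels of 102, 119 and 116 normalized CPM in Ctrl and 106 and 81.0 in Confine overlapped, with a log2 fold change of -0.26 (95% interval -0.66 to 0.13). Trpv4 (chr5:114622152-114658421, minus strand) encodes a channel opened by cell swelling and by arachidonic acid metabolites. It had 62, 55 and 62 counts in Ctrl and 29 and 44 in Confine, and the groups did not overlap in normalized CPM. Its log2 fold change of -0.75 (SE 0.38, 95% interval -1.55 to 0.05) did not pass (edgeR adjusted p = 0.171). Trpv2 (chr11:62574486-62600515, plus strand) encodes a relative of Trpv4 that answers heat and stretch, and had 13, 2 and 11 counts in Ctrl and 20 and 5 in Confine. These are close to the floor of 3 counts, which corresponds to 0.101 to 0.128 normalized CPM, and a difference in Trpv2 was not detectable at this depth (log2 fold change 0.43, 95% interval -1.13 to 1.98). Stretches of 133 to 171 bases in Trpv2 transcripts also recur, at an identity of at least 95%, in 33 further genes, so some of these reads could have more than 1 origin.

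Neither polycystin gene passed the test, though both had at least 1207 counts in every library. Pkd1 (chr17:24549834-24596508, plus strand) encodes polycystin-1, a very large membrane protein with a long extracellular part. It had 55.1, 45.6 and 59.4 normalized CPM in Ctrl and 56.8 and 48.6 in Confine, and the Confine libraries lay within the range of Ctrl. Its log2 fold change of -0.018 (95% interval -0.41 to 0.38) took the other sign in 5 of 16 alternatives. The exons of Pkd1 overlap those of Tsc2 on the opposite strand by 693 bases. Pkd2 (chr5:104459450-104505819, plus strand) encodes the channel subunit polycystin-2. It had 76.8, 92.7 and 77.9 normalized CPM in Ctrl and 101 and 93.9 in Confine, with the lowest Confine library just above the highest Ctrl library. The log2 fold change was 0.24 (95% interval -0.13 to 0.62, edgeR adjusted p = 0.369) and did not pass the test.

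Kcnk2 had the largest fold change and the smallest adjusted p of the 10 genes. The gene (chr1:189207930-189402273, minus strand) encodes the TREK-1 channel and had 196, 163 and 189 counts in Ctrl and 887 and 797 in Confine. Normalized CPM were 6.77, 6.16 and 8.04 in Ctrl and rose to 30.0 and 31.6 in Confine. The Confine libraries were thus close to each other and far above every Ctrl library. The log2 fold change was 2.14 (SE 0.20, 95% interval 1.72 to 2.56, edgeR adjusted p = 3.63e-07) and ranged from 2.05 to 2.23 when each library was left out in turn. The antisense gene A430027H14Rik shares 604 bases of exon with Kcnk2 but never exceeded 3 counts.

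Pla2g4a (chr1:149829618-149961290, minus strand) was the other strongly measured gene that rose. It had 1830, 1768 and 1325 counts in Ctrl and 4060 and 3966 in Confine. The corresponding 63.2, 66.8 and 56.3 normalized CPM in Ctrl stood against 137 and 157 in Confine, again without overlap. The log2 fold change was 1.25 (SE 0.18, 95% interval 0.87 to 1.62, edgeR adjusted p = 4.12e-05) and stayed between 1.14 and 1.34 without any single library. No other annotated gene shares exon bases with Pla2g4a.

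Since Kcnk2, Pla2g4a and Trpc1 rose together, the 250 bases before their start sites are shown, as given by RefSeq on GRCm38.p6, 5′ to 3′ on the strand of the gene. RefSeq promoters were matched for 9 of the 10 genes (15 start sites in all), and Piezo2 had none in the table. A set of 3 motifs was searched on both strands. The letters ACGTG are the core bound by hypoxia-inducible factors and lie within a common E-box. The letters TGANTCA are bound by AP-1, a dimer of Fos and Jun proteins induced by many stimuli. The letters GGAATG are bound by TEAD factors, the partners of the mechanosensitive coactivator YAP. Capitals mark a match to any of them, on either strand.
Kcnk2, outermost start, chr1:189402274-189402523, minus strand: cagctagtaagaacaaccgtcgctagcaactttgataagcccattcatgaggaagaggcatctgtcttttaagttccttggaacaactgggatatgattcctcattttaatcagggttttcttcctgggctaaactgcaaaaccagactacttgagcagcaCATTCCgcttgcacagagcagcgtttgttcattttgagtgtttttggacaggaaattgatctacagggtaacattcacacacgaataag
Kcnk2, next start, chr1:189344193-189344442, minus strand: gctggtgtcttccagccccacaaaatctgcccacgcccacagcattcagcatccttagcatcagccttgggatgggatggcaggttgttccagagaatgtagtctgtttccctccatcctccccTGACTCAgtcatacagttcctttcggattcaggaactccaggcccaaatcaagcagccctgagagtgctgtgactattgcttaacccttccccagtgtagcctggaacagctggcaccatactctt
Pla2g4a, outermost start, chr1:149961291-149961540, minus strand: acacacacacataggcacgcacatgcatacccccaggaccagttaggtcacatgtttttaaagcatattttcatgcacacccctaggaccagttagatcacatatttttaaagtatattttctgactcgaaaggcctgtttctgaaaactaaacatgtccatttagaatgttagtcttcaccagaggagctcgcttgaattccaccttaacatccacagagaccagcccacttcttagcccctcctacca
Trpc1, chr9:95750349-95750598, minus strand: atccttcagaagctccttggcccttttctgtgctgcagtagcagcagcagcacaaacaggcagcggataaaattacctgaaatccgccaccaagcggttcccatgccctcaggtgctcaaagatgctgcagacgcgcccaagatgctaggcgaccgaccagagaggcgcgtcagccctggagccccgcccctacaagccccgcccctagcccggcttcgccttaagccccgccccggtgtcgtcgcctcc
The outermost Kcnk2 promoter held the reverse complement of GGAATG at 89 bases before the start, and the next Kcnk2 promoter held TGACTCA at 126 bases before it. The other 2 Kcnk2 promoters, both of Pla2g4a and that of Trpc1 held none of the 3 motifs. Of genes that did not pass the test, Trpm7 held the palindrome CACGTG, and Pkd2 and the innermost start of Trpv2 held GGAATG. Among all 32851 promoter windows of this length, 16.6% held ACGTG, 6.7% TGANTCA and 12.6% GGAATG. Counts per gene do not say which start site was used, and a match of letters is a description, not a binding site.

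Per kilobase of merged exons, the scale on which different genes can be compared, the order of the levels changed between the groups. In Ctrl it ran from Trpm7 (9.94 ± 0.819, SD, n = 3), Pla2g4a (9.72 ± 0.832) and Pkd2 (8.11 ± 0.871 normalized CPM per kb), whose libraries overlapped from neighbour to neighbour, down to Pkd1 (3.06 ± 0.404), Piezo1 (2.49 ± 0.137) and Kcnk2 (1.41 ± 0.194). Trpv4 (0.561 ± 0.0750), Piezo2 (0.480 ± 0.0837), Trpc1 (0.315 ± 0.0790) and Trpv2 (0.0738 ± 0.0493) followed, and of these Trpv4 and Piezo2 overlapped. In Confine, Pla2g4a stood first (23.1 ± 2.25, SD, n = 2), apart from Pkd2 (9.59 ± 0.514) and Trpm7 (8.28 ± 1.58), which overlapped. Kcnk2 moved from place 6 to place 4 (6.23 ± 0.240), above Pkd1 (3.02 ± 0.331) and Piezo1 (2.11 ± 0.206), and Trpc1 (0.976 ± 0.410) moved above Trpv4 (0.334 ± 0.133) and Piezo2 (0.160 ± 0.0464). Trpv2 stayed last (0.0975 ± 0.0752), and its libraries overlapped those of Piezo2. With the longest transcript in place of merged exons as length, 6 of the 10 genes kept their place in Ctrl, and the changes were exchanges between Trpm7 and Pla2g4a and between Trpv4 and Piezo2.

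**Figure D3:**
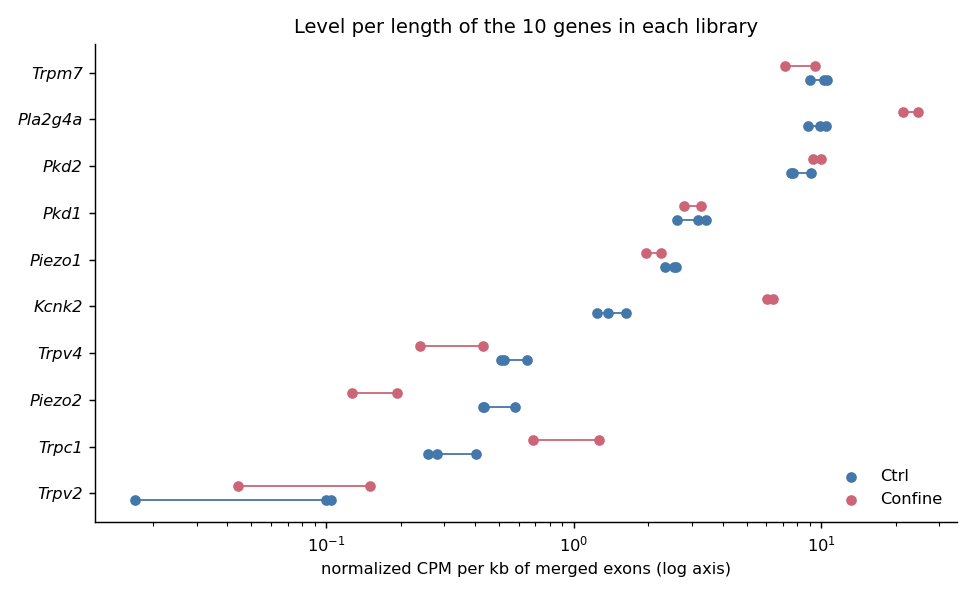
Level per length (normalized CPM per kb of merged exons, log axis) of the 10 genes in each library, ordered by the Ctrl mean; blue points are the 3 Ctrl libraries, red points the 2 Confine libraries and lines their range. Pla2g4a and Kcnk2 lie clearly to the right in Confine and Piezo2 to the left, while the Confine values of Pkd1 lie within its Ctrl range.

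Expressed as shares of the summed level per length of the 10 genes, Pla2g4a took 24.8% to 28.4% in Ctrl and reached 40.0% and 45.6% in Confine. Kcnk2 took 3.27% to 4.57% in Ctrl and 11.3% and 11.8% in Confine. The share of Trpm7 was 25.8% to 28.9% in Ctrl and 17.5% and 13.2% in Confine. Its own level did not pass the test, and a share also falls when the sum grows. The sum of the 10 genes was 34.8 to 38.1 normalized CPM per kb in Ctrl and 53.7 and 54.1 in Confine. The ratio of Kcnk2 to Piezo1 per length was 0.537, 0.480 and 0.696 in Ctrl and 2.68 and 3.26 in Confine, so the order of these genes was inverted in every Confine library.

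Around these genes, 10 lists of related genes were read from the same fit. They hold 153 different genes, of which 92 were tested, and 25 passed the test, 23 higher and 2 lower in Confine. That is 27.2% of the tested listed genes against 23.0% of all tested genes, with a median log2 fold change of 0.19 against -0.0021. The excess of higher over lower calls depended on the scaling. Scaling by library size only, without TMM factors, moved the median of all tested genes from -0.0021 to -0.21. Then 17 listed genes were higher and 8 lower, and over all tested genes 1444 were higher and 2805 lower in place of 2035 and 1619. The 4 calls among the 10 genes themselves kept their direction and side of the threshold. The number of listed genes past the test was 15 without the repeated library and 16 without Confine replicate 3.

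Few relatives of the channels had enough reads to be tested. Of 23 other TRP genes, 8 had 0 counts in all 5 libraries, which allows up to 0.101 to 0.128 normalized CPM per library, among them Trpa1. Only 5 of these 23 genes were tested, and 1 passed. Trpm6, the close relative of Trpm7 known from magnesium uptake in kidney and gut, had 8, 13 and 8 counts in Ctrl and 48 and 49 in Confine (log2 fold change 2.26, SE 0.47, edgeR adjusted p = 0.00170). Per length it remained far below Trpm7, at 0.231 against 8.28 normalized CPM per kb in Confine. Of 13 other K2P genes, 7 had 0 counts in every library and 2 were tested. Kcnk3, which encodes the acid-sensitive leak channel TASK-1, rose from 33, 43 and 47 counts in Ctrl to 347 and 249 in Confine (log2 fold change 2.77, SE 0.28, edgeR adjusted p = 9.46e-07). Kcnk2 and Kcnk3 were thus the K2P genes with the most reads, at 6.23 and 2.72 normalized CPM per kb in Confine. Kcnk4 and Kcnk10, the other K2P channels opened by stretch, never exceeded 10 counts and were not tested.

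Of 16 other genes of stretch-gated or volume-regulated channels, 7 were tested and 2 passed, both higher, against 1 higher and 1 lower with library size alone. Lrrc8a, the core subunit of the volume-regulated anion channel, had a mean of 691 normalized CPM in Ctrl and 1178 in Confine (log2 fold change 0.77, edgeR adjusted p = 0.00671, and 0.134 without the repeated library). Tmem63b, of the OSCA/TMEM63 stretch channels, had a log2 fold change of 0.54 (edgeR adjusted p = 0.0333), a call lost in 8 of 16 alternatives. These were leaving out any library but Ctrl replicate 2, library size alone, no filter on low counts (edgeR adjusted p = 0.0519), the test against a fold of 1.2 (0.101) and the replicate block with the identical columns as number 2 (0.206). Of 5 genes for partners of the Piezo channels 4 were tested and 0 passed. Mdfic, whose protein binds Piezo channels and slows their inactivation, had a log2 fold change of -0.13 and Atp2a2 of -0.089. Among the polycystin relatives and ciliary transport genes 1 of 10 tested genes passed. This was Arl13b, a small GTPase of the ciliary membrane, with a log2 fold change of 0.75 (edgeR adjusted p = 0.00418), which rose to 0.0533 without the repeated library and 0.0543 without Confine replicate 3.

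The list of calcium-dependent effectors included the largest fold change of these lists. All 22 were tested, of which 6 were higher and 1 lower, and 5 were higher and 3 lower with library size alone. Among all tested genes 12.8% were higher and 10.2% lower. Rcan1, a calcineurin inhibitor whose transcription is itself raised by calcineurin and NFAT, had 263, 240 and 213 counts in Ctrl and 3758 and 2345 in Confine. This is a 12.1-fold rise (log2 fold change 3.60, SE 0.20, edgeR adjusted p = 3.53e-10). The NFAT factor genes Nfatc1 (log2 fold change 1.40, edgeR adjusted p = 1.13e-05) and Nfatc2 (2.55, edgeR adjusted p = 0.00120, at most 52 counts in any library) rose as well. RNA counts do not measure calcium or NFAT activity, and a part of calcium entry in these changes was not tested. Mylk, which encodes the calmodulin-dependent myosin light chain kinase, fell by 0.98 on the log2 scale (edgeR adjusted p = 0.00141, and 0.0606 without the repeated library). Among calcium stores and pumps 2 of 15 tested genes passed, both of them plasma membrane calcium pumps and both higher, against 1 higher and 2 lower with library size alone. Atp2b4 rose from 8.53 ± 1.28 normalized CPM (SD, n = 3) to 26.8 ± 4.45 (SD, n = 2), with a log2 fold change of 1.65 (edgeR adjusted p = 1.14e-05). Atp2b1 had a log2 fold change of 0.75 (edgeR adjusted p = 0.0131), a call lost without the repeated library (0.265), without Ctrl replicate 1 (0.0573), with library size alone (0.0651) and with the replicate number as a block and the identical columns as number 2 (log2 fold change 0.65, edgeR adjusted p = 0.0810). The store-operated entry genes Stim1, Stim2, Orai1, Orai2 and Orai3 did not pass, with log2 fold changes from -0.52 for Orai3 to 0.38 for Orai2.

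**Figure D4:**
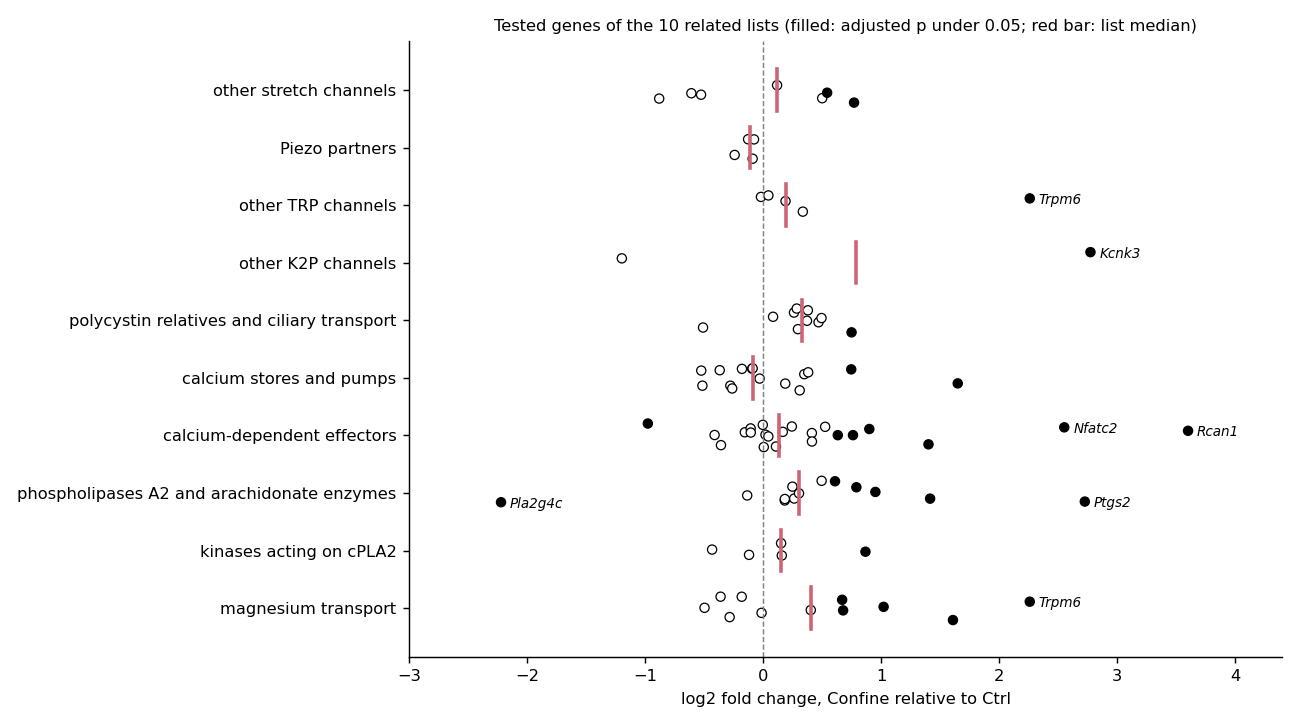
Log2 fold change in Confine relative to Ctrl (horizontal axis) of the tested genes in the 10 lists, each point 1 gene (a gene of several lists is drawn in each), filled where the adjusted p was under 0.05; red bars are list medians and vertical scatter within a list carries no value. Rcan1 (3.60), Kcnk3 (2.77), Ptgs2 (2.73), Nfatc2 (2.55) and Trpm6 (2.26) stand to the right and Pla2g4c (-2.22) to the left, and most open points lie near 0.

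Around cytosolic phospholipase A2, 6 of 13 tested genes of phospholipases and arachidonate enzymes passed the test, 5 higher and 1 lower, or 4 higher and 1 lower with library size alone. The share over all tested genes was 23.0%, and this list was not tested as a set. Ptgs2, the inducible cyclooxygenase that turns arachidonic acid into prostaglandin H2, had 583, 414 and 365 counts in Ctrl and 3066 and 3095 in Confine. The difference was 2.73 on the log2 scale with an SE of 0.19 (edgeR adjusted p = 1.04e-08), and it stayed between 2.60 and 2.86 without any single library. The secreted phospholipase Pla2g2e had a log2 fold change of 1.41 (edgeR adjusted p = 0.00450, and 0.0599 without the repeated library), and the lysosomal phospholipase Pla2g15 0.79 (edgeR adjusted p = 0.00545, and 0.0840 without Confine replicate 3). Pla2g4c, a relative of Pla2g4a that does not need calcium, had 45, 29 and 31 counts in Ctrl and 3 and 12 in Confine. It was lower (log2 fold change -2.22, edgeR adjusted p = 0.0110), but the value rests on few reads in Confine. It was -1.46 with an edgeR adjusted p of 0.147 without the repeated library, and -3.65 with 0.00640 without Confine replicate 3. Of the kinases listed as acting on the enzyme, Prkca passed (log2 fold change 0.87, edgeR adjusted p = 0.00250).

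Magnesium transport genes, listed for Trpm7, had 5 of 11 tested genes higher and 0 lower, and 3 of 11 higher and 1 lower with library size alone. With the replicate block and the identical columns as number 2, 3 were higher and 0 lower. Over all tested genes 12.8% were higher and 10.2% lower, and no test was made over this small list. Slc41a1, a magnesium exporter of the plasma membrane, rose from 14.0 ± 0.407 normalized CPM (SD, n = 3) to 42.8 ± 5.52 (SD, n = 2), with a log2 fold change of 1.61 (edgeR adjusted p = 3.54e-06). Its relative Slc41a2 had 1.02 (edgeR adjusted p = 0.00695, and 0.0687 without Confine replicate 3). Trpm6, given above, is also in this list.

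The genes closest in pattern to Piezo1 and Pla2g4a were found among 11792 other tested genes with a mean of at least 50 counts, by the root mean square difference of centred log2 CPM over the 5 libraries. For Piezo1 they were Srp9 (0.018), Vps36 (0.020) and Nudt1 (0.021), with log2 fold changes from -0.25 to -0.22. For Pla2g4a they were Sertad1 (0.049), Unc5b (0.052) and Rai14 (0.056), with log2 fold changes from 1.25 to 1.31. All values of this measure rest on the same 5 libraries. Because the genes were picked for likeness over them, their log2 fold changes had to be close to those of Piezo1 and Pla2g4a.

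The libraries held 22287210 to 32537550 counts, and mitochondrial transcripts took 0.689% to 0.806% of them, with overlapping ranges in the groups. Of 10 fibroblast markers 8 were tested, 5 higher and 0 lower, or 4 higher and 1 lower with library size alone. Over all tested genes 12.8% were higher and 10.2% lower. The summed level of the fibroblast markers was 8745 to 9602 normalized CPM in Ctrl and 15732 to 16510 in Confine. The markers Thy1 and Dcn were near 0 in Ctrl (at most 2 counts), which departs from the usual fibroblast profile, while Col1a1, Col1a2 and Vim were abundant. All 10 fibroblast markers entered with no filter on low counts, and 6 were then higher and 0 lower in Confine. Leukocyte markers summed to 15.9 to 18.8 normalized CPM in Ctrl and 36.5 to 41.8 in Confine, with 3 of 5 tested markers higher (Cd68, Csf1r and Cd14, of which Csf1r passed in 6 of 15 alternatives) and Lyz2 lower. Library size alone gave 2 leukocyte markers higher and 1 lower. The defining leukocyte markers Adgre1, Cd3e and Tyrobp had 0 counts in every library and Ptprc at most 2. Endothelial markers summed to 0.595 to 1.36 normalized CPM in Ctrl and 2.43 to 2.70 in Confine, and epithelial markers to 0.415 to 0.794 and 4.02 to 8.77. In these 2 lists only Vwf and Krt19, respectively, were tested, and both rose, so these sums do not speak for the lists as a whole. With no filter on low counts, 5 genes of each list entered and 1 of each was higher. The median log2 fold changes were then -2.74 for the endothelial and -0.67 for the epithelial list. Of the smooth muscle markers 2 of 4 tested rose (Des and Smtn) and 2 did not pass, against 2 higher and 2 lower with library size alone. The summed level of this list went the other way from Des and Smtn, at 1909 to 3046 in Ctrl and 1596 to 1701 in Confine. The part of these differences in the changes of the 10 genes was not tested.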

How the data were processed

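RNA-seq counts per gene of 3 Ctrl and 3 Confine samples were analysed. Polyadenylated RNA was made into dUTP libraries, which keep the strand. Per the labels, the authors' processing notes name Trim Galore 0.6.10, HISAT2 2.1.0, SAMtools 1.5, featureCounts and the build mm10. The deposited values are raw counts without normalization, and the strand setting and annotation release are not given in the sources used here, which could move counts between overlapping genes. GENCODE M21 (GRCm38) gave names, positions and exon lengths and matched 55154 of 55335 identifiers without their version. Confine columns 1 and 2 are identical and were counted once, so 3 against 2 libraries entered the fit in place of 3 against 3. Columns not used numbered 0.

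Genes were kept by filterByExpr (15881 genes), normalized by TMM, and the groups compared in edgeR 4.0.16 (R 4.3.3) by its quasi-likelihood test, with Benjamini-Hochberg adjustment over all tested genes and no replicate block. Degrees of freedom were 3 (residual) and 14.8 (median prior). Standard errors were derived from the log2 fold change and the F statistic, and 95% intervals from them. Floors of 3 counts cover counting error alone, because PCR copies were not marked by molecular identifiers. On counts simulated for this comparison (15881 genes, of which 15428 passed the filter, and 200 changed by a log2 fold of 2), 90% of the changed genes were recovered and 4.76% of calls were false. The simulation did not cover smaller folds, such as those of Trpc1, Pla2g4a and Piezo2, or a share of changed genes like the 23.0% called in the data. Sequence copies were searched with blastn 2.17.0. Alternatives were DESeq2 1.42.0, limma-voom (limma 3.58.1), other scalings and filters, a test against a fold of 1.2, replicate blocks, the identical columns counted as 2 samples, and leaving out each library.

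The genes and lists were chosen with earlier results of these data known. The text names the 10 genes, and of each list up to 3 genes per direction with the smallest adjusted p under 0.05 and a mean of at least 20 counts, plus any past an absolute log2 fold change of 1.5. Genes named beyond this rule, such as those that did not pass, were chosen after their values were seen.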

Additional observations from a re-analysis of the deposited data

How the results depend on the processing

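The 4 calls among the 10 genes (Kcnk2, Trpc1 and Pla2g4a higher, Piezo2 lower) stood in all 16 alternatives, with the exception of Trpc1 without Confine replicate 3. The number of calls was 5 with the identical columns counted as 2 samples, when Trpv4 also passed (log2 fold change -0.91, edgeR adjusted p = 0.0381), a fit that treats a copy as a replicate. Fits without a Confine library assume that the remaining one varies like the Ctrl libraries. Low counts limit Trpv2 and Trpv4 most. With the replicate number as a block, 4 of the 10 genes passed under either numbering of the identical columns. Over all genes the replicate block gave 2528 calls with the identical columns as number 2 and 4933 as number 1, against 3654 without it, and 19 and 35 listed genes against 25. Deviations of same-numbered libraries correlated weakly across genes, which are not independent replicates. With the identical columns as number 2 and as number 1, the correlation was -0.053 and 0.052 over all tested genes. In genes with a log2 CPM above 2 it was -0.11 and 0.091. Over so few libraries this check cannot exclude pairs. The labels do not say that the numbers mark a shared culture, so they were not taken as pairs.

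Pkd1 changed sign to 0.013 with the replicate block and the identical columns as number 2, and to 0.0061 with these columns counted as 2 samples, and ranged from -0.13 to 0.088 when each library was left out. Trpv2 changed sign to -0.15 with the replicate block and the identical columns as number 1, and ranged from -0.72 to 1.02 when each library was left out. The 5 fits that each left out 1 library called 2054 to 4426 genes, 15 to 34 listed genes, 3 to 4 of the 10 genes, and 1078 to 1290 genes with the fold cutoff. With at least 10 counts in every library, 812 genes passed with the fold cutoff in place of 1271, among fewer genes tested (13612). With the longest transcript as length, 6 of 10 genes kept their place in the order of Ctrl levels. Where a result changed otherwise, the cause was not tested.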
